A study of Mus musculus with 26 samples.

Results

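The 10 chemokine ligands Ccl2, Ccl3, Ccl4, Ccl6, Ccl7, Ccl9, Ccl12, Cxcl2, Cxcl10 and Cxcl16 were followed in microglia sorted from mouse brain, out of 24738 genes tested on the same arrays. They were chosen by symbol, through the transcript accession of their probes, and each had 1 probe. The cells came from the nucleus accumbens (NAc) or from medial prefrontal cortex (mPFC), collected 1.5 hours after mice had ended repeated social defeat stress (R-SDS) or, as the naive condition, cage transfer. The genotypes were TLR-DKO; CX3CR1EGFP/+ and CX3CR1EGFP/+ (called WT), all C57BL/6, so every group carried the Cx3cr1 allele that makes microglia fluorescent. There were 3 R-SDS and 4 naive arrays of TLR-DKO mPFC, 3 and 3 of WT mPFC, 4 and 3 of TLR-DKO NAc, and 3 and 3 of WT NAc, for 26 arrays in all. Stressed TLR-DKO mice carry the label resilient and stressed WT mice the label susceptible, and no ages are given. Each array held EGFP-positive cells pooled from 3 to 6 mice, with 500 pg of RNA amplified before labelling, and the mice came from 2 experiments. The labels do not spell out TLR-DKO; the published work on these mice describes a double knockout of Toll-like receptors 2 and 4. EGFP from the Cx3cr1 locus also marks other CX3CR1-positive myeloid cells, which limits the sort as a gate for microglia.

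Chemokines are small secreted proteins that draw leukocytes along a gradient by binding G protein-coupled receptors. Microglia make several of them when Toll-like receptors, interleukin 1 or tumour necrosis factor activate NF-kappaB and AP-1, or when interferons activate STAT and IRF factors. In the mouse, Ccl3, Ccl6 and Ccl9 are ligands of CCR1, Ccl2, Ccl7 and Ccl12 of CCR2, Cxcl2 of CXCR2, Cxcl10 of CXCR3, and Cxcl16, which is made as a transmembrane protein, of CXCR6.

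No ligand passed an adjusted p of 0.05 in any of the 13 comparisons made, so what follows gives their levels and the differences with their errors. In WT mPFC, Cxcl10, Ccl3 and Ccl4 averaged 6.48-fold, 2.77-fold and 3.03-fold higher after R-SDS than in naive mice, with no overlap between arrays, as for 5.06% of all genes. The Cxcl10 difference of 2.70 on the log2 scale was 1.73 without the 2 arrays that stood furthest from the rest. In TLR-DKO mPFC the differences of the same 3 genes were 0.46, -0.04 and 0.15 on the log2 scale, each smaller than its standard error (SE). Ccl7 averaged above naive in all 4 pairs of R-SDS and naive groups, as did 9.16% of genes, and Ccl6 and Ccl9 below it in all 4, as did 5.74%. Without those 2 arrays Ccl7 and Ccl9 kept these sides, whereas Ccl6 stood at 0.34 in TLR-DKO mPFC and 0.49 in WT mPFC.

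The sequences upstream of these genes differ in the letters that the inducing factors are known to bind, which is why 4 of them are shown. RefSeq's promoter table (build GRCm38.p6), from 250 bases before a transcript start to 50 after it, holds 6 of the 10 genes. Both strands were searched for the interferon-stimulated response element (ISRE, GAAA, any 2 bases, then GAAA), the AP-1 site (TGANTCA) and the kappaB motif, and capitals mark the matches.
Ccl3 (chr11:83649329-83649628, minus strand): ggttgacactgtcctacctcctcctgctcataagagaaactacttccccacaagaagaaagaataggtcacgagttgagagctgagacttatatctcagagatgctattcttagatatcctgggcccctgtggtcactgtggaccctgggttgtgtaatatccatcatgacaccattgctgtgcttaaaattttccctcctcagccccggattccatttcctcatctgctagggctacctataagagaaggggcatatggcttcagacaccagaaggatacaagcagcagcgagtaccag
Ccl9 (chr11:83578587-83578886, minus strand): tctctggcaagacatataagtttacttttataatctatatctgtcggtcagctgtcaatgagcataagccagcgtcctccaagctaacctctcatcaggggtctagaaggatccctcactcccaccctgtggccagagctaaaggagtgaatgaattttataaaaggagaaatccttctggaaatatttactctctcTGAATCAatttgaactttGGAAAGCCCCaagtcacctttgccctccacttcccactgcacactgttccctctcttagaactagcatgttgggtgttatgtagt
Cxcl2 (chr5:90903649-90903948, plus strand): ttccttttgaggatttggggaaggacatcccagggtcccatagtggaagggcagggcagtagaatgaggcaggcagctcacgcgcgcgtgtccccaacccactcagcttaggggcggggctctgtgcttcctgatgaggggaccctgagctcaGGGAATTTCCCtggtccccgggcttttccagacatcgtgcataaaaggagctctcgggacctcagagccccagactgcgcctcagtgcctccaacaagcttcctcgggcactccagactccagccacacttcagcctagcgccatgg
Cxcl10 (chr5:92348840-92349139, minus strand): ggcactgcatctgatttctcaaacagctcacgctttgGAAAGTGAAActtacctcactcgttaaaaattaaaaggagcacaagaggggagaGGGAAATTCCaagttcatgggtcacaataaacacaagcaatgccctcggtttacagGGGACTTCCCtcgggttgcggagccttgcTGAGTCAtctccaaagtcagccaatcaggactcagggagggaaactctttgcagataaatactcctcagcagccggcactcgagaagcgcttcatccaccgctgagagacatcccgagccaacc
Cxcl10 held 1 ISRE, 2 kappaB motifs and 1 AP-1 site, and Ccl9 held 1 AP-1 site and 1 kappaB motif, none of which overlapped. In Cxcl2 there were 2 kappaB matches that overlap each other, since the motif can match on both strands. The windows of Ccl3, Ccl6 and Ccl12 held no match to these letters. Among the 32817 windows of the table, 3.43% held the ISRE, 7.81% the AP-1 site and 4.5% the kappaB motif. Ccl6 and Ccl9, whose starts lie 14.5 kb apart on chromosome 11, shared a run of 13 bases, gccctccacttcc, which is the longest shared by any pair of the 6 windows.

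A level is log2 of the processed signal minus the 75th percentile of its array, so a difference of 1 is 2-fold, and levels of different probes are not compared. The 75th percentile ran from 80.7 to 340.5 intensity units, 49.97% to 71.0% of spots were well above background, and the number of arrays limits the precision. Replicate 3 of WT mPFC R-SDS (mean r of 0.79 with the other arrays) and replicate 1 of naive TLR-DKO mPFC (0.83) stood furthest from the rest, and mPFC values that turn or move by much are also given without them. Tlr2 was well above background on 0 of 14 TLR-DKO arrays (-4.60 to -3.46) and on 12 of 12 WT arrays (0.62 to 2.68). The Tlr4 probe was well above background on all of them (1.43 to 3.86 in TLR-DKO, 1.60 to 3.14 in WT), and whether it lies in the deleted part is unknown, so it checks nothing. All 9 microglia markers were well above background on all 26 arrays, but so were some markers of other cells. Of 4 monocyte markers, Ccr2 was so on 7 arrays, Plac8 on 25, and Vcan and Ly6c1 on 26. Of 2 neutrophil markers, Cxcr2 was so on 14 arrays and Camp on 26, and the 9 perivascular macrophage markers ran from 7 arrays (Cd163) to 23 (Cd209f). Of 8 listed neuron markers 4 were measured. Snap25, Tubb3 and Rbfox3 were well above background on all 26 arrays and Nefl on 10. Their mean levels were 5.35 (Snap25), -0.46 (Tubb3), -2.26 (Rbfox3) and -3.17 (Nefl). A difference in these pools can reflect the share of cells that make a transcript or the RNA per cell, which cannot be told apart.

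**Figure D1:**
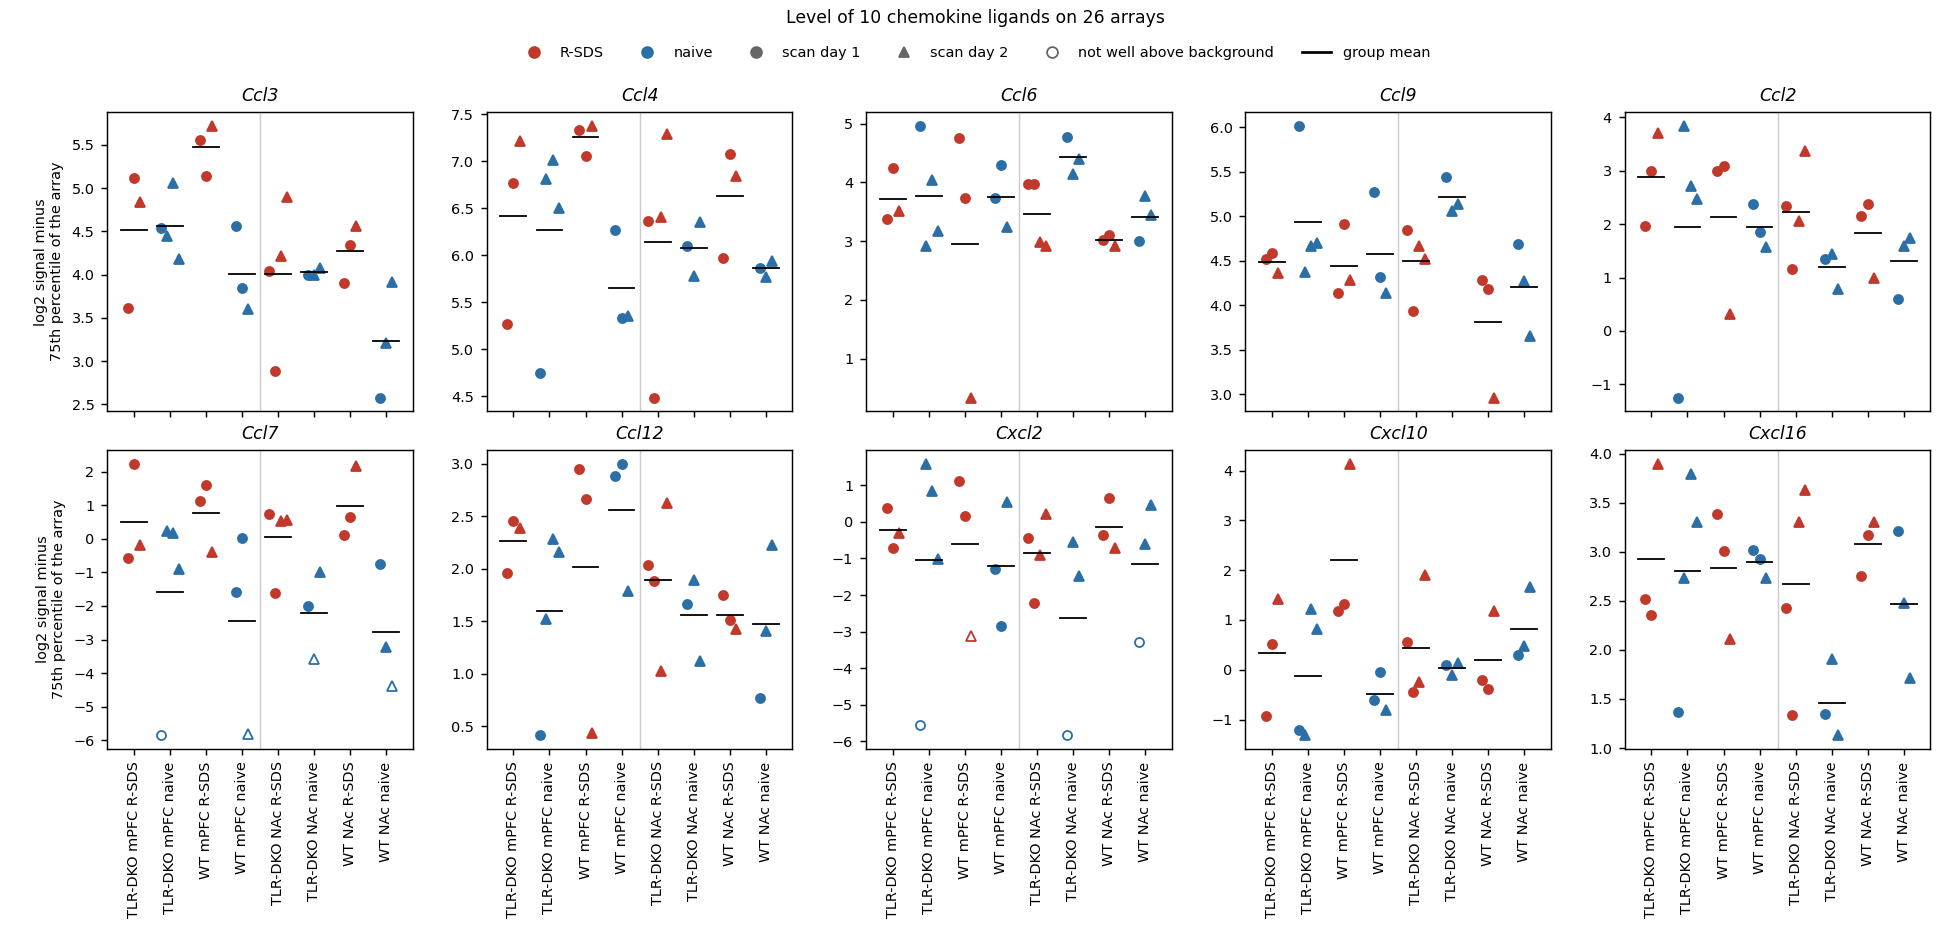
Level of each of the 10 ligands on the 26 arrays, in log2 signal minus the 75th percentile of the array, with 1 panel a gene and the 8 groups along the x axis. Red points are R-SDS and blue points naive, circles and triangles are scan days 1 and 2, open symbols are not well above background, and bars are group means; the 3 WT mPFC R-SDS arrays hold the highest Ccl3 levels, and the 4 open Ccl7 points are all naive.

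Ccl3 and Ccl4, also called MIP-1 alpha and beta, which draw monocytes and T cells, were well above background on every array. Ccl3 stood at 3.61, 5.11 and 4.84 in TLR-DKO mPFC R-SDS, against 4.54, 4.45, 5.06 and 4.17 in naive TLR-DKO mPFC. It stood at 5.56, 5.13 and 5.72 in WT mPFC R-SDS, against 4.56, 3.85 and 3.60 in naive WT mPFC. The stressed WT arrays were the 3 highest of all 26 for Ccl3, whereas the TLR-DKO arrays of the 2 conditions overlapped. In the NAc, Ccl3 stood at 4.04, 2.89, 4.21 and 4.90 in TLR-DKO R-SDS, against 4.00, 4.00 and 4.08 in naive TLR-DKO. WT NAc had 3.90, 4.34 and 4.56 after R-SDS, against 2.58, 3.20 and 3.92 in naive mice, where the lowest stressed array lay just below the highest naive one. The Ccl3 difference, R-SDS minus naive, was -0.04 ± 0.44 (SE) in TLR-DKO mPFC and 1.47 ± 0.47 in WT mPFC (95% interval 0.50 to 2.44, limma adjusted p = 0.830). In the NAc it was -0.02 ± 0.44 in TLR-DKO and 1.03 ± 0.47 in WT (adjusted p = 1.000). On slide 1 and slide 2 alone the WT mPFC difference was 1.14 and 2.12, beside medians over all genes of -0.04 and 0.61. Slide 2 held only replicate 3 of each WT mPFC group, and the stressed one is an outlying array. On slides 3 and 4 the WT NAc difference was 1.54 and 1.00, beside -0.02 and 0.12 over all genes.

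Ccl4 followed the same order of conditions in WT cells. It stood at 5.27, 6.76 and 7.21 in TLR-DKO mPFC R-SDS, against 4.74, 6.81, 7.01 and 6.50 in naive TLR-DKO mPFC. WT mPFC had 7.33, 7.05 and 7.37 after R-SDS, against 6.27, 5.33 and 5.36 in naive mice. The WT mPFC groups did not overlap, while those of TLR-DKO mPFC interleaved. TLR-DKO NAc had 6.37, 4.49, 6.41 and 7.28 after R-SDS, against 6.10, 5.78 and 6.35 in naive mice. WT NAc had 5.97, 7.07 and 6.84 after R-SDS, against 5.87, 5.77 and 5.94 in naive mice, again without overlap but with neighbouring values. The Ccl4 difference was 0.15 ± 0.58 in TLR-DKO mPFC, 1.60 ± 0.62 in WT mPFC (95% interval 0.30 to 2.90, adjusted p = 0.830), 0.06 ± 0.58 in TLR-DKO NAc and 0.77 ± 0.62 in WT NAc. Slides 1 and 2 alone gave 1.39 and 2.02 in WT mPFC, beside medians over all genes of -0.04 and 0.61. Ccl4 stood at -0.36 in TLR-DKO mPFC and 1.54 in WT mPFC without the 2 outlying arrays. Quantile normalization gave 1.17 for Ccl4 and 1.05 for Ccl3 in WT mPFC.

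Cxcl10, the interferon-inducible ligand of CXCR3 that draws T and NK cells, had the largest difference of the 10 relative to its error in WT mPFC. It stood at -0.92, 0.51 and 1.41 in TLR-DKO mPFC R-SDS, against -1.21, -1.31, 1.21 and 0.82 in naive TLR-DKO mPFC. WT mPFC had 1.18, 1.31 and 4.14 after R-SDS, against -0.61, -0.05 and -0.80 in naive mice. All 3 stressed WT mPFC arrays lay above all 3 naive ones, and the outlying replicate 3 was far above the other two. In TLR-DKO NAc it stood at 0.57, -0.44, -0.24 and 1.89 after R-SDS, against 0.10, -0.12 and 0.13 in naive mice. WT NAc had -0.20, -0.39 and 1.18 after R-SDS, against 0.29, 0.47 and 1.67 in naive mice, so the groups of both NAc genotypes overlapped. The Cxcl10 difference was 0.46 ± 0.77 in TLR-DKO mPFC and 2.70 ± 0.82 in WT mPFC (95% interval 0.98 to 4.41, adjusted p = 0.830). The TLR-DKO mPFC value was 0.09 without the 2 outlying arrays. In WT mPFC it was 1.73 without them, 1.58 on slide 1 alone and 4.94 on slide 2, where each WT group had 1 array. It was 0.41 ± 0.77 in TLR-DKO NAc and -0.61 ± 0.82 in WT NAc.

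The monocyte attractants Ccl2, Ccl7 and Ccl12, formerly called MCP-1, MCP-3 and MCP-5, bind CCR2. Ccl7 stood at -0.58, 2.25 and -0.18 in TLR-DKO mPFC R-SDS, against -5.85, 0.23, 0.17 and -0.89 in naive TLR-DKO mPFC. WT mPFC had 1.13, 1.61 and -0.40 after R-SDS, against -1.58, 0.03 and -5.82 in naive mice. In each mPFC genotype 1 naive array was far below the rest and not well above background, and the other naive arrays overlapped the stressed ones. TLR-DKO NAc had 0.75, -1.62, 0.53 and 0.56 after R-SDS, against -2.0, -3.59 and -1.0 in naive mice. WT NAc had 0.12, 0.65 and 2.16 after R-SDS, against -0.76, -3.23 and -4.38 in naive mice. The WT NAc groups did not overlap, and those of TLR-DKO NAc overlapped through 1 stressed array. Over all groups Ccl7 was not well above background on 0 of 13 R-SDS and 4 of 13 naive arrays. Its difference was 2.08 ± 1.38 in TLR-DKO mPFC (0.66 without the 2 outlying arrays), 3.24 ± 1.48 in WT mPFC, 2.25 ± 1.38 in TLR-DKO NAc and 3.77 ± 1.48 in WT NAc. The WT mPFC value was 1.55 without naive replicate 3, the array at -5.82, and 2.14 and 5.42 on slides 1 and 2 alone. In TLR-DKO mPFC the same slides gave 6.69 and -0.02, and in WT NAc slides 3 and 4 gave 1.14 and 5.96. Averaged over the 4 pairs of groups, Ccl7 had the smallest p of the 10 ligands, with a difference of 2.83 ± 0.72 (95% interval 1.34 to 4.32, adjusted p = 0.516), and 2.89 and 3.55 on scan days 1 and 2 alone. The size depended on how dim signals were treated. It was 1.47 with normexp background correction and 2.65 with dim signals raised to the lowest signal well above background of their array.

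Ccl2 was well above background on every array. It stood at 1.97, 3.00 and 3.70 in TLR-DKO mPFC R-SDS, against -1.25, 3.84, 2.71 and 2.47 in naive TLR-DKO mPFC. WT mPFC had 3.00, 3.09 and 0.31 after R-SDS, against 2.39, 1.86 and 1.57 in naive mice. The lowest array of each of these pairs was an outlying one. TLR-DKO NAc had 2.35, 1.17, 2.07 and 3.36 after R-SDS, against 1.35, 1.44 and 0.79 in naive mice, and WT NAc had 2.16, 2.38 and 0.99 against 0.61, 1.60 and 1.75. Groups overlapped in all 4 pairs. The Ccl2 difference was 0.95 ± 0.88 in TLR-DKO mPFC, 0.20 ± 0.94 in WT mPFC, 1.05 ± 0.88 in TLR-DKO NAc and 0.53 ± 0.94 in WT NAc. Without the 2 outlying arrays the mPFC values were -0.12 in TLR-DKO and 1.11 in WT. Ccl12 varied least of these 3 genes, from 0.42 to 3.00 over the 26 arrays, with both extremes in naive mPFC. Its differences were 0.67, -0.54, 0.33 and 0.09 in the same order of groups, with SE of 0.55 to 0.59. Ccl12 stood at 0.28 in TLR-DKO mPFC and 0.25 in WT mPFC without the 2 outlying arrays, so its WT mPFC value had the other sign.

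Cxcl2, a CXCR2 ligand that draws neutrophils, was not well above background on 1 of 13 R-SDS and 3 of 13 naive arrays. Its levels ran from -3.12 to 1.12 in R-SDS arrays and from -5.83 to 1.59 in naive arrays. The mean of the 4 stress differences was 1.05 ± 0.76, but 4.01 on scan day 1 alone and -1.11 on scan day 2 alone, so its direction was not the same on the 2 days. In TLR-DKO mPFC and WT mPFC Cxcl2 stood at 0.82 and 0.59, and at -0.69 and 1.85 without the 2 outlying arrays. Cxcl16 stood at 2.42, 1.34, 3.31 and 3.63 in TLR-DKO NAc R-SDS, against 1.34, 1.91 and 1.13 in naive TLR-DKO NAc. The stressed arrays other than replicate 2 lay above all naive ones. WT NAc had 2.75, 3.17 and 3.31 after R-SDS, against 3.21, 2.48 and 1.71 in naive mice. The Cxcl16 difference was 1.22 ± 0.57 in TLR-DKO NAc (95% interval 0.03 to 2.40, adjusted p = 1.000, 0.54 and 1.95 on slides 3 and 4 alone) and 0.61 ± 0.61 in WT NAc, against 0.12 ± 0.57 in TLR-DKO mPFC and -0.06 ± 0.61 in WT mPFC. The mPFC values of Cxcl16 were -0.36 and 0.30 without the 2 outlying arrays.

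Ccl6 and Ccl9, neighbouring genes on chromosome 11 whose products act on CCR1 in rodents, lay on the other side of 0 in all 4 stress differences, which for Ccl6 held in the NAc but not in mPFC without the 2 outlying arrays. Ccl9 stood at 4.51, 4.59 and 4.37 in TLR-DKO mPFC R-SDS, against 6.02, 4.38, 4.67 and 4.70 in naive TLR-DKO mPFC. WT mPFC had 4.14, 4.91 and 4.28 after R-SDS, against 5.27, 4.31 and 4.13 in naive mice. Both mPFC pairs overlapped, and the highest array of all was the outlying naive TLR-DKO one. TLR-DKO NAc had 4.85, 3.93, 4.66 and 4.52 after R-SDS, against 5.45, 5.06 and 5.13 in naive mice. WT NAc had 4.28, 4.18 and 2.96 after R-SDS, against 4.68, 4.28 and 3.65 in naive mice. The TLR-DKO NAc groups did not overlap for Ccl9. Its differences were -0.45 ± 0.41 in TLR-DKO mPFC, -0.13 ± 0.44 in WT mPFC, -0.72 ± 0.41 in TLR-DKO NAc and -0.40 ± 0.44 in WT NAc. The mPFC values of Ccl9 were -0.09 in TLR-DKO and -0.05 in WT without the 2 outlying arrays. The mean of all 4 was -0.43 ± 0.21 (95% interval -0.87 to 0.02, adjusted p = 0.914), and -0.81 and -0.39 on scan days 1 and 2 alone.

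Ccl6 stood at 3.38, 4.25 and 3.51 in TLR-DKO mPFC R-SDS, against 4.96, 2.91, 4.04 and 3.17 in naive TLR-DKO mPFC. WT mPFC had 4.76, 3.74 and 0.34 after R-SDS, against 3.74, 4.30 and 3.24 in naive mice. The 0.34 was the outlying array and the lowest Ccl6 level of all. TLR-DKO NAc had 3.98, 3.98, 2.99 and 2.91 after R-SDS, against 4.77, 4.14 and 4.40 in naive mice, without overlap. WT NAc had 3.03, 3.11 and 2.92 after R-SDS, against 3.01, 3.77 and 3.45 in naive mice. The Ccl6 difference was -0.06 ± 0.69 in TLR-DKO mPFC, -0.81 ± 0.74 in WT mPFC, -0.97 ± 0.69 in TLR-DKO NAc and -0.39 ± 0.74 in WT NAc. The mPFC values were 0.34 in TLR-DKO and 0.49 in WT without the 2 outlying arrays, and the mean of the 4 was -0.56 ± 0.36 with them and -0.13 without. Ccl6 and Ccl9 were also lower on scan day 2 than on scan day 1, with differences of -0.97 ± 0.32 and -0.55 ± 0.19 (limma adjusted p = 0.041 and 0.0497), as part of 4441 genes (18% of those tested) that differed between the days. Cxcl10 was higher on scan day 2, by 1.04 ± 0.36, with an adjusted p of 0.051. These differences between days include the 2 outlying arrays and were not computed without them. WT mPFC R-SDS replicate 3, on scan day 2, had Ccl6 at 0.34 and Cxcl10 at 4.14. Naive TLR-DKO mPFC replicate 1, on scan day 1, had Ccl6 at 4.96 and Ccl9 at 6.02. Scan day 1 held 8 R-SDS and 5 naive arrays and scan day 2 held 5 R-SDS and 8 naive arrays, with both regions and genotypes on each. With scan day as a block the mean stress difference was -0.78 for Ccl6 and -0.55 for Ccl9.

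**Figure D2:**
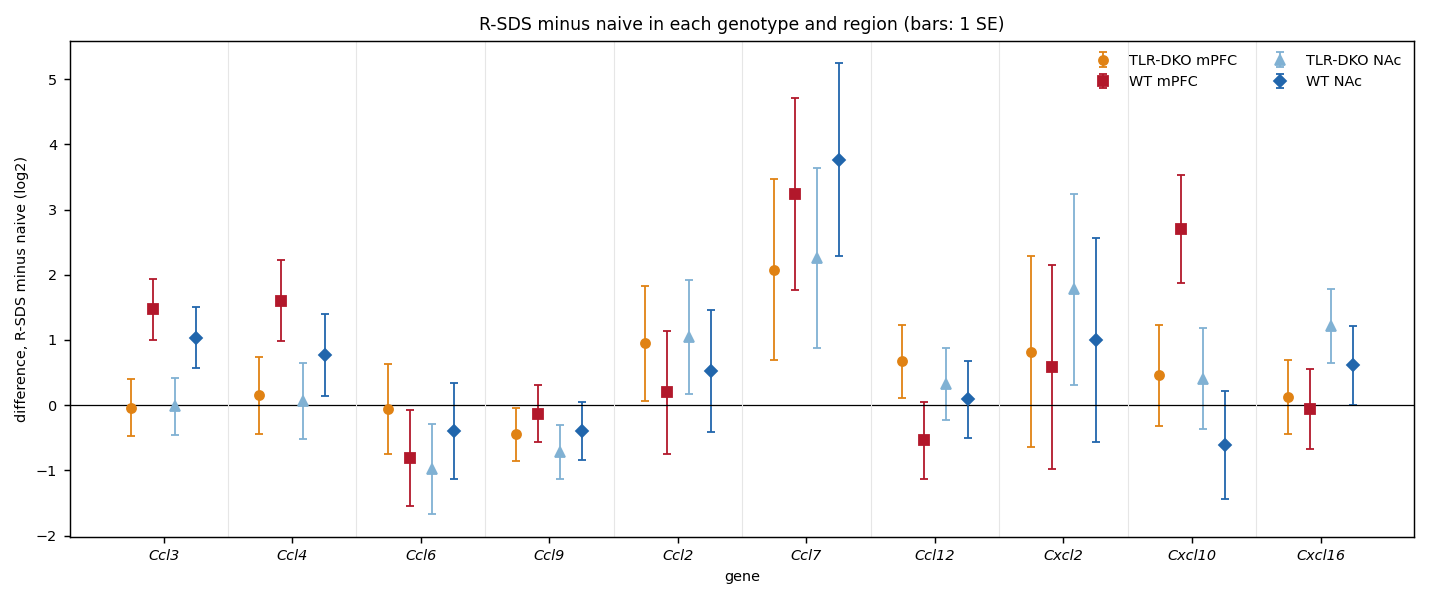
Difference between R-SDS and naive arrays (log2, y axis) for each ligand (x axis) in TLR-DKO mPFC, WT mPFC, TLR-DKO NAc and WT NAc, with bars of 1 SE from the limma fit. Ccl3 and Ccl4 stand at 1.47 and 1.60 in WT mPFC and within 0.15 of 0 in both TLR-DKO regions, Ccl7 lies above 0 in all 4, and Ccl6 and Ccl9 lie below 0 in all 4 with all arrays in the fit (Ccl6 in mPFC does not without the 2 outlying arrays).

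The count of ligands past a threshold is given beside the share of all genes. The ligands were chosen with earlier results of these data known, so these shares give scale and are not a test. In WT mPFC, 0 of 10 ligands passed an adjusted p of 0.05, against 0.00808% of genes, and 4 passed an unadjusted p of 0.05 (Ccl7, Ccl3, Ccl4 and Cxcl10), against 5.9%. Of these, Ccl3, Ccl4 and Cxcl10 had no overlap and were higher, as did 5.06% of genes. In TLR-DKO mPFC, 0 ligands passed either threshold (0% and 5.07% of genes) and none was free of overlap (2.14% of genes higher and 4.11% lower). In WT NAc, 0 passed after adjustment (0% of genes), Ccl7 and Ccl3 passed unadjusted (2.93%), and Ccl7 and Ccl4 were higher without overlap (4.51%). In TLR-DKO NAc, 0 passed after adjustment (0.00808%), Cxcl16 passed unadjusted (3.04%), and Ccl6 and Ccl9 were lower without overlap (2.11%). The median difference of the 10 ligands was 0.30 in TLR-DKO mPFC, 0.39 in WT mPFC, 0.37 in TLR-DKO NAc and 0.57 in WT NAc, beside -0.05, 0.17, -0.02 and 0.06 over all genes. The medians in mPFC depended on the 2 outlying arrays, and were -0.07 in TLR-DKO (4 of 10 above 0) and 1.23 in WT (9 of 10) without them, beside -0.004 and 0.03 over all genes. The all-gene median of 0.17 in WT mPFC was 0.02 after quantile normalization. Ccl2, Ccl4, Ccl7 and Cxcl2 lay above 0 in all 4 pairs, as did 9.16% of genes, and Ccl6 and Ccl9 below 0 in all 4, as did 5.74%. Without the 2 outlying arrays, Ccl7 and Ccl9 alone of these 6 stayed on 1 side in all 4, since Ccl2, Ccl4 and Cxcl2 stood at -0.12, -0.36 and -0.69 in TLR-DKO mPFC and Ccl6 above 0 in both mPFC pairs. For the mean of the 4 pairs, 0 ligands passed after adjustment (0% of genes) and Ccl7, Ccl3 and Ccl4 passed unadjusted (5.47%), with Ccl3 at 0.61 ± 0.23 and Ccl4 at 0.65 ± 0.30.

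The next question was whether the response to stress differed between genotypes, and it was tested as the TLR-DKO stress difference minus the WT one. Stressed TLR-DKO mice are labelled resilient and stressed WT mice susceptible, so genotype and that label cannot be told apart here. In mPFC this was -1.51 ± 0.64 for Ccl3 (95% interval -2.83 to -0.18, adjusted p = 0.810), -1.45 ± 0.85 for Ccl4 and -2.24 ± 1.13 for Cxcl10 (95% interval -4.59 to 0.11). No ligand passed after adjustment, as for 0% of genes, and Ccl3 alone of the 10 passed unadjusted, beside 6.09% of genes. Ccl3 stood at -1.32 on slide 1 alone, -1.84 on slide 2 alone and -0.83 after quantile normalization. For Ccl4 the slides gave -0.12 and -1.58, and for Cxcl10 -0.56 and -3.77. The median over all genes was -0.09 on slide 1 alone and -0.73 on slide 2 alone. Leaving out the 2 outlying arrays gave -1.39 for Ccl3, -1.90 for Ccl4 and -1.64 for Cxcl10. Ccl12 had the largest value of the opposite sign, 1.21 ± 0.81, but 0.03 without those arrays. With them the median of the 10 ligands was -0.07 and 5 lay above 0, and without them it was -1.30 and 1 lay above 0, beside all-gene medians of -0.23 and -0.03. In NAc the same difference was -1.05 ± 0.64 for Ccl3, -0.71 ± 0.85 for Ccl4 and 1.02 ± 1.13 for Cxcl10, and 0 ligands passed with adjustment (0% of genes) or without it (2.52%). For Ccl7 it was -1.16 ± 2.02 in mPFC and -1.51 ± 2.02 in NAc, with 95% intervals of -5.37 to 3.06 and -5.72 to 2.70. The Ccl7 value in mPFC had no settled direction, at -3.17 without the 2 outlying arrays, 0.53 without naive WT mPFC replicate 3, and 4.54 and -5.44 on slides 1 and 2 alone.

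The genotype was also compared within each condition, with the same arrays that serve in the stress comparisons. After R-SDS, genotype again goes with the label resilient or susceptible. After R-SDS in mPFC, Cxcl10 averaged 0.33 ± 1.18 in TLR-DKO and 2.21 ± 1.67 in WT (SD, n = 3 each), a difference of -1.88 ± 0.82 (SE, limma adjusted p = 0.786) that was -0.91 without the outlying arrays. Ccl3 averaged 4.52 ± 0.80 in TLR-DKO and 5.47 ± 0.30 in WT (SD), a difference of -0.95 ± 0.47 (SE). The groups barely missed overlapping, with the highest TLR-DKO array at 5.11 and the lowest WT one at 5.13, and 6.19% of genes had no overlap in that direction. The median difference of all genes was -0.24 there, and -0.07 after quantile normalization. Adjusted, 0 ligands passed there (0.0121% of genes), and unadjusted only Cxcl10 did (5.84%). In naive NAc, Ccl9 averaged 5.21 ± 0.20 in TLR-DKO and 4.20 ± 0.52 in WT (SD), a difference of 1.01 ± 0.44 (SE, 95% interval 0.09 to 1.93, adjusted p = 1.000), with 0.76 and 1.14 on slides 3 and 4 alone. Ccl6 averaged 4.44 ± 0.31 and 3.41 ± 0.38 in the same groups and Ccl3 4.02 ± 0.05 and 3.23 ± 0.67. These 3 genes were higher without overlap in TLR-DKO, as were 3.52% of genes, and Cxcl10 was lower without overlap, as were 3.86%. Adjusted, 0 ligands passed in naive NAc (0.0121% of genes), and unadjusted only Ccl9 did (3.3%). In naive mPFC, 0 passed with (0.0121%) or without adjustment (5.69%), and after R-SDS in NAc likewise (0.00808% and 4.03%).

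Over all 4 pairs, Ccl6 and Ccl9 lay above WT in TLR-DKO each time, as did 4.69% of genes, and no ligand lay below WT each time (14.8%). Without the 2 outlying arrays this did not hold in mPFC, where Ccl6 stood at -0.54 after R-SDS and -0.38 in naive mice, and Ccl9 at -0.03 and 0.01. The mean genotype difference was 0.53 ± 0.21 for Ccl9 (95% interval 0.08 to 0.97, adjusted p = 0.516) and 0.54 and 0.83 on scan days 1 and 2 alone, and 0.42 without the 2 outlying arrays. For Ccl6 it was 0.56 ± 0.36, and 0.14 without the 2 outlying arrays. Adjusted, 0 ligands passed (0.0202% of genes), and unadjusted Ccl9 did (8.23%). The other 8 lay between -0.51 (Cxcl10) and 0.26 (Ccl2).

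**Figure D3:**
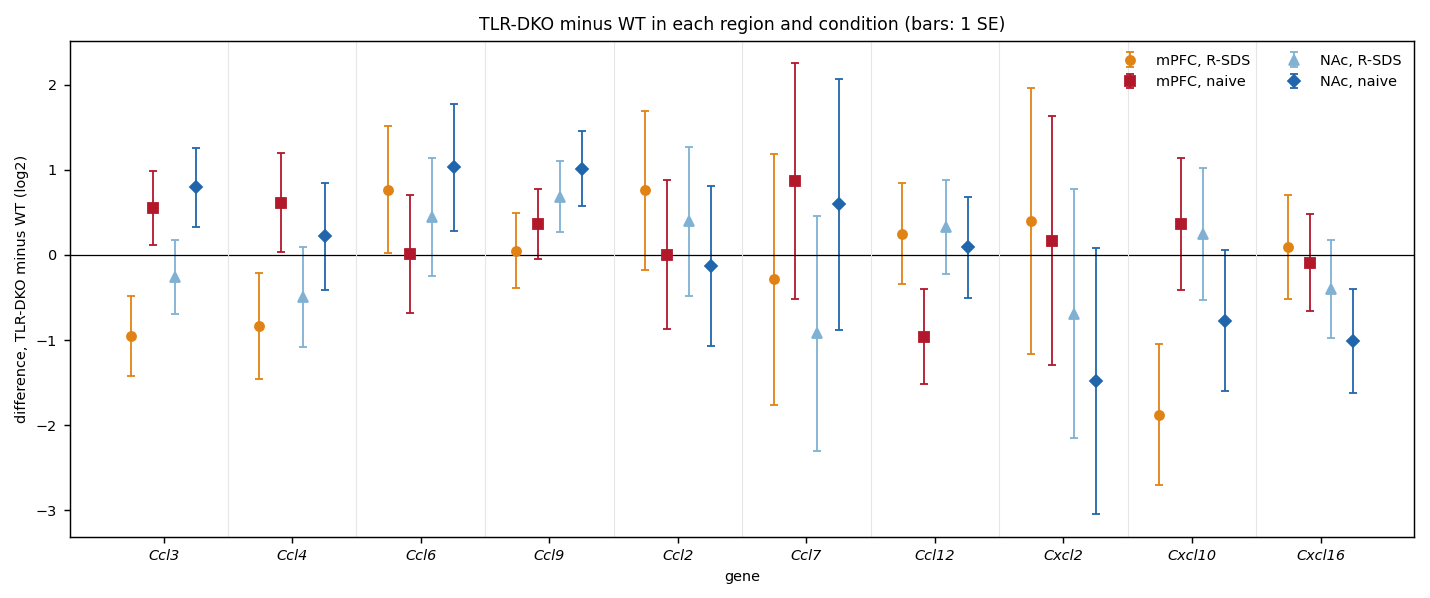
Difference between TLR-DKO and WT arrays (log2, y axis) for each ligand (x axis) in R-SDS and naive mPFC and in R-SDS and naive NAc, with bars of 1 SE from the limma fit. Ccl3 and Ccl4 lie below 0 after R-SDS and above it in naive mice, Cxcl10 stands at -1.88 in R-SDS mPFC, and Ccl9 at 1.01 in naive NAc.

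Between regions, 1 of the 10 ligands averaged higher in NAc than in mPFC (Ccl6, at 0.04 ± 0.36), as did 44.7% of genes. The other 9 averaged lower. Leaving out the 2 outlying arrays put Ccl6 at -0.19 and Cxcl10 at 0.04. Ccl3 averaged 3.88 in NAc and 4.64 in mPFC over the 4 pairs of groups, a difference of -0.75 ± 0.23 (95% interval -1.22 to -0.28, limma adjusted p = 0.120). Adjusted, 0 ligands passed (0.897% of genes), and unadjusted Ccl3 alone did (15.4%). With slide as a random block Ccl3 stood at -0.77 with an adjusted p of 0.770, and on scan days 1 and 2 alone at -1.07 and -0.50, since each slide held 1 region. Perivascular macrophage markers lay on the same side, with 0 of 9 above 0, a median of -2.58 and 1 that passed. Their summed level ran from -1.80 to 3.66 over the NAc groups and from 3.78 to 6.68 over the mPFC groups, and its part in the Ccl3 difference was not tested.

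The order of the 8 group means set WT mPFC R-SDS first for Ccl3, at 5.47, above TLR-DKO mPFC naive at 4.56, a gap larger than the pooled SD of 0.55. The next 6 groups of Ccl3, down to naive WT mPFC at 4.00, were each closer than that SD to their neighbours, and naive WT NAc at 3.23 stood below them. Cxcl10 likewise had a gap larger than its pooled SD of 1.03 between WT mPFC R-SDS at 2.21, a mean that holds the outlying array at 4.14, and naive WT NAc at 0.81, and none further down. For Cxcl16 such a gap, past a pooled SD of 0.72, lay between naive WT NAc at 2.47 and naive TLR-DKO NAc at 1.46, the lowest. Ccl7 had its 4 R-SDS groups, from 0.98 to 0.06, above its 4 naive groups, from -1.59 to -2.79. Its neighbouring groups, like those of Ccl2, Ccl4, Ccl6, Ccl9, Ccl12 and Cxcl2, lay within the pooled SD of each other.

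The receptors and the other ligands of the family set these values in context. Of 23 chemokine receptors 14 were measured and of 28 other ligands 13, and 0 of either list passed in any comparison. For the mean stress difference 5 of 14 receptors lay above 0 (median -0.20) and 6 of 13 other ligands (median -0.04), beside 8 of 10 of the microglial ligands (median 0.63) and 55.9% of all genes (median 0.04). Ccr2, the receptor of Ccl2, Ccl7 and Ccl12, was well above background on 7 arrays, Cxcr3 on 8 and Cxcr6 on 23. Cxcr4, the receptor of Cxcl12, had the smallest p among receptors for the mean stress difference, averaging 0.32 in R-SDS and -1.87 in naive groups (2.19 ± 0.76, adjusted p = 0.809). It was followed by Cxcr2 at -0.81 ± 0.37 and Ccr2 at -0.85. In WT mPFC the 3 receptors with the smallest p were the scavenger receptor Ackr2 at 1.74 ± 0.56, Cxcr4 at 4.69 ± 1.58 and Cxcr3 at -2.85. Their R-SDS and naive means were -1.93 and -3.67 (Ackr2), 1.76 and -2.92 (Cxcr4), and -4.28 and -1.43 (Cxcr3). Ackr2 was well above background on 18 of the 26 arrays and Cxcr4 on 21, so dim signal limits these differences. Their values include the outlying arrays. Cxcr6, the receptor of Cxcl16, averaged 1.29 in TLR-DKO groups, 2.38 ± 0.62 above its WT average, with an adjusted p of 0.309. Among other ligands, the CCR3 ligand Ccl24 stood at -3.42 ± 1.39 for the genotype difference in the NAc stress response. The platelet chemokine Pf4, also counted above among the perivascular macrophage markers, stood at -2.88 ± 1.1 between NAc and mPFC (limma adjusted p = 0.212).

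Genes of the pathways known to induce chemokines were counted in the same fit. For the mean stress difference, 22 of 22 immediate early genes lay above 0 (median 0.62), 16 of 22 NF-kappaB feedback genes and targets (median 0.32) and 9 of 16 type I interferon response genes (median 0.10), with 0 past the adjusted threshold. In WT mPFC the counts were 21 of 22 (median 1.18), 18 of 22 (median 0.90) and 11 of 16 (median 0.39), beside 62.3% of all genes above 0 and 6 of 10 microglial ligands. These lists were chosen with earlier results of these data known. Markers of other cells gave no gene past the adjusted threshold for the mean stress difference. The counts above 0 were 2 of 9 microglia, 3 of 4 monocyte, 0 of 2 neutrophil, 6 of 9 perivascular macrophage, 5 of 7 astrocyte, 4 of 5 endothelial, 4 of 4 neuron, 3 of 6 oligodendrocyte and 3 of 3 T and NK cell markers measured. In WT mPFC, where Ccl3, Ccl4 and Cxcl10 stood furthest above naive, summed monocyte markers ran from 2.36 to 3.53 in R-SDS and from 2.12 to 2.42 in naive arrays. Summed neuron markers ran from 5.49 to 6.82 and from 4.80 to 6.58 in the same groups. Each sum adds linear levels of the 4 markers measured of 8 listed, so it mostly follows the brightest probe. That was Ly6c1 for monocytes, with a mean level of 2.50 beside -0.92 (Vcan), -1.95 (Plac8) and -4.28 (Ccr2). For neurons it was Snap25. The part of either sum in the ligands' values was not tested.

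The ligands were then compared with each other across arrays, as deviations from the group means, so that condition, genotype and region drop out. Ccl3 and Ccl4 had a Pearson r of 0.73 over the 26 arrays, 0.86 without the 2 outlying arrays and 0.90 within group and slide. An array that is alone in its group on its slide, as each outlying one is, adds nothing to the last measure. Ccl2 and Ccl4 stood at 0.66, 0.65 and 0.68 by the same 3 measures, and Ccl4 and Cxcl16 at 0.70, 0.65 and 0.39. Other pairs depended more on the measure taken. Ccl2 with Ccl12 gave 0.74, 0.44 and 0.36, Ccl2 with Cxcl2 0.72, 0.34 and 0.64, and Ccl6 with Cxcl10 -0.46, 0.15 and 0.43. The median of the 45 pairs was 0.24 (0.22 without the 2 arrays), and 31 of them lay above 0. These are descriptions, since the arrays share slides, brightness and amplification.

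**Figure D4:**
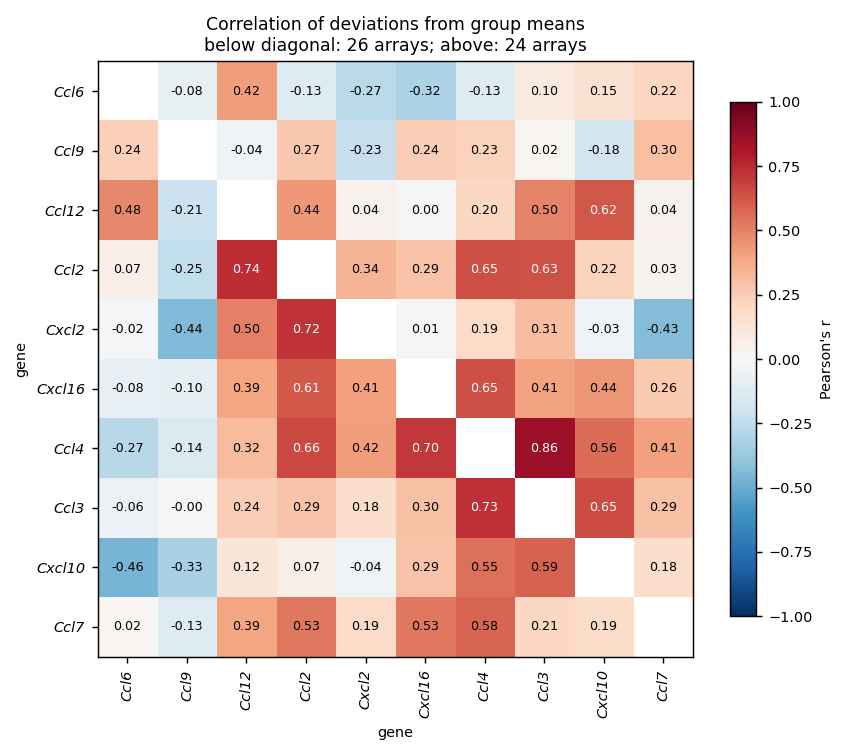
Pearson r between ligands of their deviations from group means, over 26 arrays below the diagonal and over the 24 that remain without the 2 outlying arrays above it, from blue at -1 to red at 1. Ccl3 with Ccl4 stands at 0.73 and 0.86, whereas Ccl2 with Ccl12 stands at 0.74 and 0.44.

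Among all tested genes with a RefSeq name, those closest to Ccl4 by the same measure were Il1b, the cytokine interleukin 1 beta (r = 0.91, 0.89 without the 2 arrays), Ifrd1 (0.89 and 0.86) and Nr4a1, an immediate early nuclear receptor (0.88 and 0.83). Ccl3 had Bcl2a1d, a BCL2 family member (0.79 and 0.81), Nfkbid, an inhibitor of NF-kappaB (0.75 and 0.80), and Plek (0.73 in each). Ccl9 had Evx2 (0.80 and 0.82), H2bc1 (0.78) and the cell cycle kinase Cdk1 (0.78). Cxcl10 had Cerk (0.82 and 0.76), Prss56 and Fblim1 (0.81 and 0.85). Ccl6 had Atf2 (0.90, but 0.49 without the 2 arrays), Spcs2 (0.88, but 0.48) and Necap1 (0.86, but 0.45). Ccl2 had Oga (0.88, but 0.58 without the 2 arrays), Csrnp1 (0.83, but 0.32) and Gem (0.83, but 0.57). With and without the 2 arrays, Ccl12 had Pex13 (0.82 and 0.59), Ndufb6 (0.82 and 0.70) and Arhgef6 (0.80 and 0.66). Ccl7 had Lamtor2 (0.75 and 0.63), Fosb (0.75 and 0.58) and Pithd1 (0.73 and 0.67). Cxcl2 had Atg3 (0.85 and 0.69), Borcs6 (0.85 and 0.70) and Trpm7 (0.82 and 0.76). Cxcl16 had Rpl7a (0.82 and 0.72), Gem (0.80 and 0.71) and Tram2 (0.80 and 0.71). These genes are the closest of 14369 named ones, so the list describes these arrays.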

How the data were processed

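Gene expression was measured in EGFP-positive cells on 26 single-colour Agilent arrays. The deposited scanner files hold spot intensity on a linear scale, already background-subtracted. Per the file headers they were made with Agilent Feature Extraction 11.0.1.1 for build mm9. The deposited series matrix holds log2 values that match the scanner values after centring. It served as an alternative. Levels here are log2 of the processed signal, centred on each array's 75th percentile, control spots and outlier flags were left out (108 of 55681 probes lost), and spots of a probe were averaged. Probes were named by accession through RefSeq (GRCm38.p6, 27980 of 29744 RefSeq-style probes). Probes well above background on 3 or more arrays of any group were tested, and the brightest stood for its gene (24738 genes, 14369 named). All arrays were fitted as 8 group means with limma 3.58.1 (R 4.3.3, lmFit and eBayes, two-sided, Benjamini-Hochberg over all genes, threshold 0.05), and the fit was tested on simulated data. Labels name separate pools of mice as samples, so p-values measure the spread between pools. Whether mPFC and NAc pools share mice was not checked.

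All 10 ligands were named in every comparison. Of receptors and other ligands the 3 with the smallest p were eligible, and for each ligand the 3 named genes with the highest r. The members, gene lists and comparisons were chosen with earlier results of these data known. Alternatives covered background correction, normalization, filters, probes, variance, array weights, samples, slide, scan day, replicate numbers, outlying arrays and each array left out. Background correction from gMedianSignal, the floor for dim signals, single scan days and the correlations without outlying arrays were chosen after seeing the data. Normexp on gMeanSignal was not run, since that column was not used here.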

Additional observations from a re-analysis of the deposited data

Results flagged for a closer look

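Ccl7 stood at -1.62 in TLR-DKO NAc R-SDS replicate 2, far below the other 3 arrays of the group at 0.53 to 0.75, and was well above background there. The gap to its nearest neighbour was 0.909 of the group's range, beyond Dixon's 95% critical value for 4 arrays. It was the only such array among 20 groups of 4 examined over the 10 ligands, and chance gives about 1 in 20.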

How the results depend on the processing

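The count of ligands past an adjusted p of 0.05 was 0 in all 13 comparisons and in all 3810 values computed under the alternatives, of which 270 had the other sign. Within each region, replicate numbers showed no clear pairing of the arrays. Same-number correlations of deviations ran from -0.14 to 0.22, and were not above 0.1 for all pairs of any comparison. For genotype in R-SDS NAc they were 0.10, 0.09 and 0.15. Pairing between mPFC and NAc arrays was not checked, and the region difference and the means over both regions treat them as separate. With replicate numbers as a block within region, Ccl3 in WT mPFC stayed at 1.47 (limma adjusted p = 0.708) and 0 ligands passed. Counts over all genes moved more: array weights gave 13 genes against 3 for genotype in R-SDS mPFC, 10 against 0 for the mean stress difference, 14 against 5 for the mean genotype difference and 447 against 222 for region, where a random slide block gave 0. The other counts, of 0 to 3 genes, ran from 0 to 4 under the alternatives. Leaving out each array in turn gave 65 to 371 genes for region, 3 to 12 for the mean genotype difference, 3 to 7 for genotype in R-SDS mPFC and 0 to 6 for the mean stress difference, with 0 ligands in each case. Dim signal limits Ccl7 and Cxcl2 most, and 3 or 4 arrays a group limit every value.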
